A study of Homo sapiens with 9 samples.

Results

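The GATA factors GATA1 to GATA6 and 4 proteins that work with them or compete with them (TRPS1, ZFPM1, ZFPM2 and LMO4) were followed in OEC-M1 cells, an established head and neck squamous cell carcinoma (HNSCC) line, in which GATA3 itself had been silenced. The members were every probe, other than control spots, whose transcript accession matched 1 of these 10 symbols in RefSeq, which gave 10 genes with 14 probes out of 47753 genes with 58201 probes. GATA4 has 3 probes, TRPS1 and LMO4 have more than 1 probe each, and the other 7 genes have 1 probe each. There were 3 groups of 3 arrays, from cells transfected with non-targeting siRNA (siControl), with siRNA against GATA3 (siGATA3) or with siRNA against HIF1A (siHIF1A). RNA was taken after 72 h of transfection, and cells of all 3 groups, the controls included, spent 18 h at 1% O2, so no array shows the genes at normal oxygen. The study's legend for the arrays names 1 siRNA per target. What that siRNA does by itself and what the loss of its target does therefore cannot be told apart on these arrays. Other assays of the study used more than 1 siRNA per target, among them real-time RT-PCR of selected genes. Nothing states whether the arrays came from separate cultures, and the P values measure the spread between these arrays only.

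GATA factors bind short DNA sites with the core letters GATA through zinc fingers. GATA1, GATA2 and GATA3 are best known in blood cells, GATA3 also in luminal epithelia and skin, and GATA4, GATA5 and GATA6 in heart and gut. ZFPM1 and ZFPM2, also called FOG proteins (friend of GATA), do not bind DNA in this role. They attach to a zinc finger of the GATA factor and bring in corepressors such as the NuRD and CtBP complexes. TRPS1 is an atypical GATA protein that binds the same core and represses. LMO4 is a LIM-only adaptor that holds transcription factors together through LDB1.

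Levels are log2 intensities after background correction and quantile normalization, so a difference of 1 is a doubling of intensity. They compare arrays for 1 probe, and levels of different probes were not compared with each other as amounts of RNA. Intensities of the 7 simple epithelial markers were summed in 1 place below. The median spot intensity of an array was between 992.5 and 3560, and it was lowest on the siControl replicate 3 array. The scanner software marked 86.3% to 88.5% of the probes as well above background on the siControl arrays, 74.3% to 83.7% on the siGATA3 arrays and 80.8% to 87.5% on the siHIF1A arrays, so all siGATA3 arrays had a smaller share than all siControl arrays. The part of this difference in the siGATA3 results was not tested. The same replicate number marks the same slide, and each slide held 1 array of each group, so differences within slides are given beside the group differences. Of 13 squamous and basal markers, 10 were well above background on all 9 arrays, among them KRT14 and TP63. KRT5, the usual partner of KRT14, was not well above background on any array, and DSG3 was on 3. All 7 simple epithelial markers were well above background on all 9 arrays, as were 6 of 10 mesenchymal markers, with COL3A1 and LUM well above background on none. Of the 8 blood cell markers on the array, 6 also carried this mark on all 9 arrays, PTPRC, CD3D and HBB among them, and MS4A1 on none. The mark was therefore also present for genes that define other cell types, and for the members it is given as a property of the probe.

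GATA3, the target of the knockdown, was measured by 1 probe (A_33_P3360341) that was well above background on all 9 arrays. The GATA3 gene is on chromosome 10 (GRCh38.p14, 8045333 to 8075198), and the position of the probe within it was not used here. Its level was 10.71, 11.12 and 11.48 on the siControl arrays. It was 9.64, 9.48 and 10.40 on the siGATA3 arrays and 10.30, 11.11 and 10.78 on the siHIF1A arrays. All siGATA3 arrays were below all siControl arrays, whereas the siHIF1A arrays overlapped the siControl arrays. Before normalization, the median spot intensity was 1390 to 2300 on the siControl arrays, 656 to 890 on the siGATA3 arrays and 2150 to 2280 on the siHIF1A arrays, so the siGATA3 arrays were also the lowest in the unscaled signal.

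In siGATA3 cells, GATA3 fell by 1.27 on the log2 scale (SE 0.34, 95% interval -2.01 to -0.52), which left 41.6% of the control intensity (95% interval 24.8% to 69.9%). The limma P was 0.00371, which passed the unadjusted P of 0.05 used as the threshold throughout, and the adjusted P was 1.00. The difference was -1.07, -1.64 and -1.09 within slides 1, 2 and 3, and it passed the threshold with each of the 9 arrays left out in turn, at -1.54 to -1.08. In siHIF1A cells, the GATA3 difference from siControl was -0.37 (95% interval -1.12 to 0.38, limma adjusted P = 0.823), and it did not pass. Within the slides it was -0.41, -0.01 and -0.70, so 1 slide showed almost no difference. Set directly against siHIF1A cells, GATA3 was lower in siGATA3 cells by a log2 fold change of -0.89 (95% interval -1.64 to -0.14, limma unadjusted P = 0.024, adjusted P = 0.387). This passed, but siGATA3 replicate 3 (10.40) lay above siHIF1A replicate 1 (10.30). Without siGATA3 replicate 1 or 2, or without siHIF1A replicate 2 or 3, it no longer passed, at -0.79, -0.71, -0.70 and -0.87.

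HIF1A, the target of the other siRNA, was 16.73 ± 0.50 (SD, n = 3) in siControl cells, 16.68 ± 0.56 in siGATA3 cells and 14.41 ± 0.25 in siHIF1A cells. It fell by 2.32 on the log2 scale in siHIF1A cells (SE 0.35, limma adjusted P = 0.295), with -2.20, -2.11 and -2.65 within the slides. In siGATA3 cells, the HIF1A difference was -0.05 (95% interval -0.83 to 0.73). The other HIF1A probe gave -2.43 in siHIF1A cells. The siRNA against GATA3 thus came with a lower GATA3 signal and the siRNA against HIF1A with a lower HIF1A signal, and neither cross difference passed the threshold.

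Hypoxia-inducible factors bind DNA at a short core. The GATA3 promoter is shown here because GATA3 was measured under hypoxia with and without siRNA against HIF1A. RefSeq (GRCh38.p14) lists 6 windows upstream of GATA3 transcript starts. The 250 bases before each start were searched on both strands for ACGTG or GCGTG, and 2 of the 6 windows held a match, at 63 and 21 bases before their starts. The matches are in capitals with 12 bases on each side, and both sequences are on the plus strand, at chr10:8051161-8051189 and chr10:8053608-8053636.
GATA3 upstream match 1: ggagggacttgcACGTGggcatgtgtttg
GATA3 upstream match 2: cgcctcggagccGCGTGccctccgccccg
The first match reads the same core on the minus strand, shifted by 1 base and overlapping it. Of all 35116 windows in the table, 43.2% held ACGTG or GCGTG on either strand (18.5% held ACGTG and 32.2% GCGTG). The GATA core, searched on both strands as GATA with A or T before it and A or G after it, was in 22.3% of all windows. It was in 0 of the 13 windows searched for GATA1, GATA2, GATA3, GATA6, ZFPM1 and LMO4, of which 6 belong to GATA3. Windows of GATA4, GATA5, TRPS1 and ZFPM2 were not searched, so this count covers only a part of the members. ZFPM1 and GATA2 windows also held GCGTG. A match describes these letters and is not evidence of binding.

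Among all members, GATA3 was the only 1 of 10 that passed the unadjusted P of 0.05 in siGATA3 against siControl cells. Over all 47720 genes tested, 2.97% passed, with 1.59% higher and 1.38% lower. In siHIF1A against siControl cells, 0 of 10 members passed in limma, at the unadjusted P of 0.05 or after adjustment, where 5.23% of all 47368 genes did, with 1.95% higher and 3.28% lower. In siGATA3 against siHIF1A cells, 2 of 10 passed, GATA3 (lower) and GATA5 (higher), where 12% of all 47356 genes passed, with 6.93% higher and 5.05% lower. After Benjamini-Hochberg adjustment over all genes, 0 members passed in any of the 3 comparisons, and the shares of all genes that did were 0%, 0% and 0.00422%. By single probes, 1, 0 and 2 of the 14 probes passed. These were the only probes of GATA3 and GATA5, already counted above, and the share of all probes that passed is not given here. The median difference of the 10 members was -0.01 in siGATA3 cells and -0.01 in siHIF1A cells, beside -0.02 and -0.01 for all genes. In the direct comparison it was -0.14, beside 0.0013 for all genes. Both knockdowns were compared with the same siControl arrays, so their values are not independent. The other 9 GATA factors and cofactors are described next by family.

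**Figure D1:**
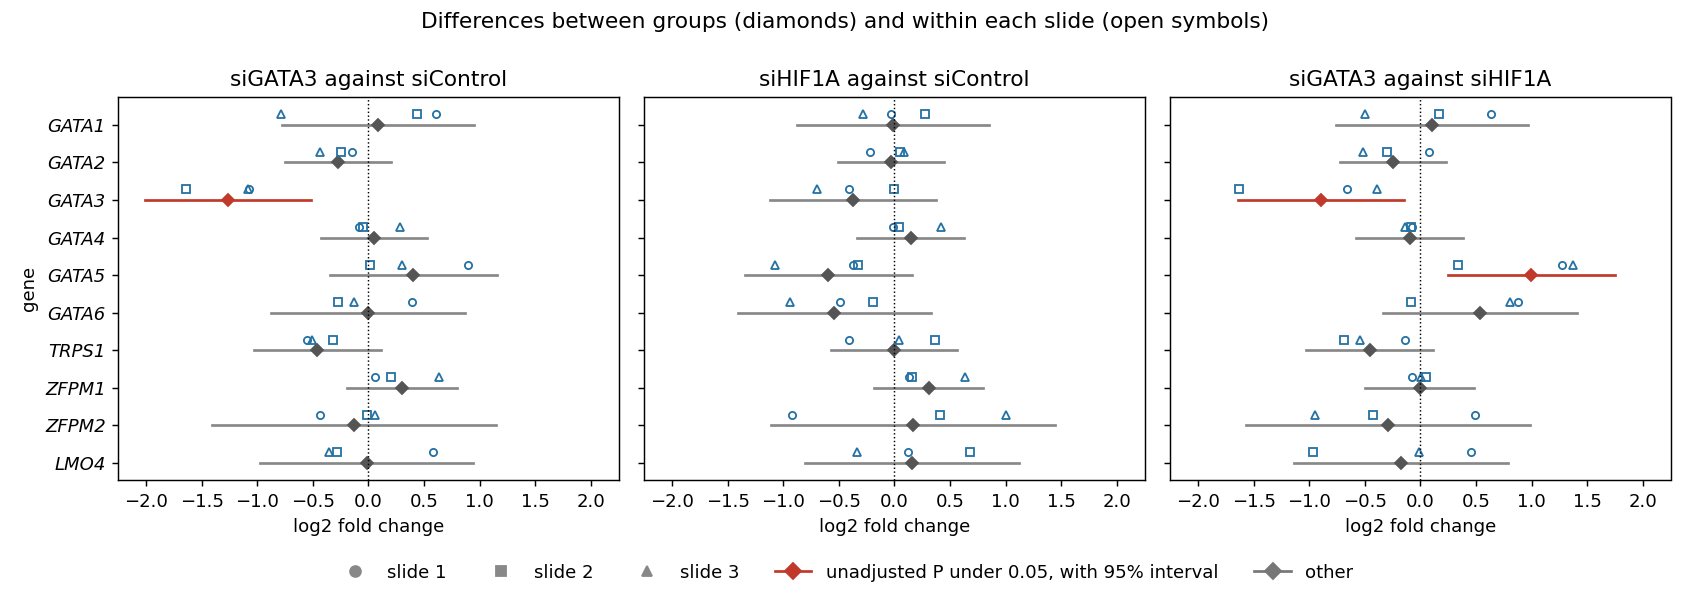
Log2 fold change (horizontal axis) of each of the 10 genes (vertical axis) in the 3 comparisons. Diamonds and lines are the limma estimate and its 95% interval, in red where the unadjusted P is under 0.05, and open symbols are the differences within slides 1, 2 and 3. GATA3 at -1.27 is the only red gene in the left panel, no gene is red in the middle panel, and GATA3 at -0.89 and GATA5 at 1.00 are red in the right panel.

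GATA2, the factor of blood stem and progenitor cells, had a level of 16.29, 16.12 and 16.18 on the siControl arrays and 16.15, 15.87 and 15.75 on the siGATA3 arrays. The siHIF1A arrays were at 16.07, 16.17 and 16.26. The siGATA3 arrays were lower than the siControl array of the same slide on all 3 slides (-0.15, -0.25 and -0.43), but siGATA3 replicate 1 lay within the range of the siControl arrays. The difference was -0.28 (SE 0.21, 95% interval -0.75 to 0.20, limma adjusted P = 1.00) and did not pass. In siHIF1A cells it was -0.03 (95% interval -0.51 to 0.45).

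GATA1, which drives red cell and megakaryocyte genes, ranged from 10.19 to 11.04 on the siControl arrays, from 10.26 to 11.64 on the siGATA3 arrays and from 10.46 to 11.01 on the siHIF1A arrays. The 3 groups overlapped. Its differences were 0.09 in siGATA3 cells (95% interval -0.78 to 0.95) and -0.02 in siHIF1A cells (95% interval -0.88 to 0.85), and the slides disagreed in direction in both.

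GATA4, a regulator of heart and endoderm genes, was measured by 3 probes, and the probe that stands for it was at 16.57 to 17.00 in siControl cells, 16.84 to 16.96 in siGATA3 cells and 16.92 to 17.04 in siHIF1A cells. Its differences were 0.05 (95% interval -0.43 to 0.53) and 0.15 (95% interval -0.33 to 0.63), and neither passed. A further probe (A_23_P384761) was low on 2 arrays of the same slide, siControl replicate 3 at 12.97 and siGATA3 replicate 3 at 13.25, while its other 7 values were between 14.44 and 15.45. On this probe the siHIF1A difference was 0.70 over all slides, but 0.12, -0.21 and 2.18 within them, so the third slide carried it. The remaining GATA4 probe gave -0.32 in siGATA3 cells and 0.09 in siHIF1A cells. No GATA4 probe passed the threshold.

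GATA5 is known from endocardium and gut, and its signal here was near the background. Its probe was well above background on 2 of 3 siControl arrays, 2 of 3 siGATA3 arrays and no siHIF1A array. The siControl arrays were at 8.12, 7.96 and 8.76. The siGATA3 arrays were at 9.02, 7.97 and 9.06, and the siHIF1A arrays were at 7.75, 7.63 and 7.68. The siHIF1A arrays lay below every other array. Against siHIF1A cells, GATA5 was higher in siGATA3 cells by a log2 fold change of 1.00 (95% interval 0.25 to 1.75, limma unadjusted P = 0.0144, adjusted P = 0.375). The group means thus differed 2.00-fold, and the 95% interval ran from 119% to 336% of the siHIF1A intensity. As the probe was not well above background in siHIF1A cells, the size of this fold is uncertain. With the scaled processed signal the log2 fold change was 1.76 and also passed. On each siHIF1A array the probe's own signal was used, as it exceeded the lowest signal of any probe marked well above background there. Within slides the difference was 1.28, 0.34 and 1.38, and without siGATA3 replicate 1 or 3 it no longer passed (0.83 and 0.81). Against siControl cells, siHIF1A cells gave -0.59 (SE 0.34, 95% interval -1.35 to 0.16, limma adjusted P = 0.823), a 1.51-fold lower mean. In siGATA3 cells the difference was 0.40 (95% interval -0.35 to 1.15), and neither passed. With the scaled processed signal these were -1.11 and 0.65, and neither passed. Without siGATA3 replicate 2, these values were -0.59 and 0.76 and both passed the unadjusted threshold. The spot intensity of GATA5 was between 2.01 and 4.52 times its local background on the 9 arrays.

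GATA6, a factor of endoderm and of several carcinomas, was at 12.20, 12.57 and 13.43 in siControl cells, 12.59, 12.30 and 13.30 in siGATA3 cells and 11.71, 12.38 and 12.49 in siHIF1A cells. The siGATA3 arrays lay within the range of the siControl arrays, and the siHIF1A arrays reached lower. The difference was -0.0049 in siGATA3 cells (95% interval -0.87 to 0.86). In siHIF1A cells it was -0.54 (SE 0.39, 95% interval -1.41 to 0.33, limma adjusted P = 0.823). It did not pass, although siHIF1A was lower within all 3 slides (-0.49, -0.19 and -0.94). It was -0.19 without siControl replicate 3 and -0.30 without siHIF1A replicate 1.

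TRPS1, the repressor that binds the GATA core, was measured by a pair of probes that disagreed. On the probe that stands for it (A_23_P134755), siControl arrays were at 11.94, 11.29 and 11.40. The siGATA3 arrays were at 11.39, 10.96 and 10.90, and the siHIF1A arrays at 11.53, 11.65 and 11.44. The siGATA3 arrays overlapped the siControl arrays only through siGATA3 replicate 1, and they were below all siHIF1A arrays. The difference from siControl was -0.46 (SE 0.26, 95% interval -1.03 to 0.11, limma adjusted P = 1.00) and did not pass, with -0.55, -0.32 and -0.50 within slides. Against siHIF1A cells it was also -0.46 (95% interval -1.03 to 0.11, limma adjusted P = 0.452) and did not pass. The second TRPS1 probe gave 0.16 in siGATA3 cells, and it was higher within all 3 slides (0.16, 0.16 and 0.17). In siHIF1A cells the probes gave -0.0028 and 0.13.

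**Figure D2:**
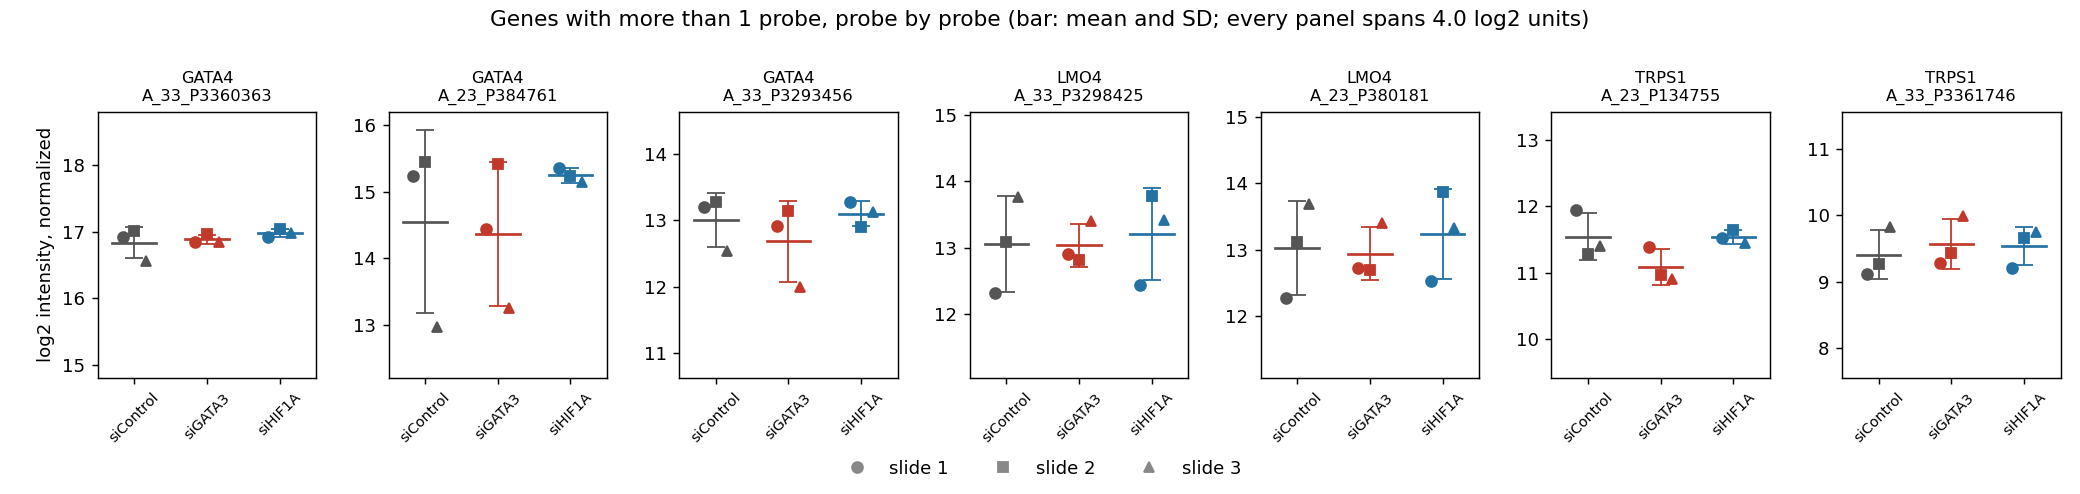
Normalized log2 intensity (vertical axis) of the 7 probes of GATA4, LMO4 and TRPS1 on the 9 arrays, grouped by siRNA, with 1 symbol shape per slide, bars for the mean and error bars for the SD over 3 arrays. The LMO4 probes place the 9 arrays alike, the TRPS1 probes do not, and the second GATA4 panel shows the low values of 12.97 and 13.25 on the third slide.

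ZFPM1 (FOG1), the partner through which GATA factors reach NuRD in blood cells, was at 15.47, 15.59 and 15.19 in siControl cells. It was at 15.52, 15.79 and 15.82 in siGATA3 cells and at 15.60, 15.74 and 15.82 in siHIF1A cells. The siHIF1A arrays were all above the siControl arrays, and the siGATA3 arrays overlapped the siControl arrays through replicate 1. The differences were 0.30 (SE 0.22, 95% interval -0.19 to 0.79, limma adjusted P = 1.00) and 0.31 (SE 0.22, 95% interval -0.19 to 0.80, limma adjusted P = 0.823), and neither passed. The third slide gave 0.64 and 0.63, and the other slides gave 0.06 to 0.21 in both knockdowns. That slide held the dimmest array, siControl replicate 3, which had the lowest ZFPM1 value.

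ZFPM2 (FOG2), the FOG protein of heart and gonad, was the most variable member among the controls by the probe that stands for each gene. Its siControl arrays were at 10.30, 8.47 and 8.18. The siGATA3 arrays were at 9.86, 8.46 and 8.24, and the siHIF1A arrays at 9.38, 8.88 and 9.18. The first slide was highest in each group, and the probe was well above background on 8 of 9 arrays. The differences of -0.13 and 0.17 had 95% intervals of -1.41 to 1.15 and -1.11 to 1.45, so a change of more than 2-fold either way would lie within them.

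LMO4, the LIM-only adaptor, was at 12.32, 13.09 and 13.76 in siControl cells, 12.90, 12.81 and 13.40 in siGATA3 cells and 12.44, 13.77 and 13.42 in siHIF1A cells. The groups overlapped, and the arrays of 1 group differed by up to 1.44. The differences were -0.02 (95% interval -0.98 to 0.94) and 0.16 (95% interval -0.80 to 1.12). The other LMO4 probe gave -0.09 and 0.21. Over the 10 genes and 3 comparisons, the 95% intervals were between 0.95 and 2.56 log2 units wide, which is what 3 arrays per group could resolve.

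Among the genes whose level followed GATA3 most closely over the 9 arrays were SMARCD1 (Pearson's r = 0.982), EPN1 (0.976) and MNS1 (0.952), out of 15912 genes well above background on all 9 arrays. SMARCD1 is a subunit of the SWI/SNF chromatin remodeller and EPN1 is an endocytic adaptor. These correlations are a description over arrays that share the group differences, and they were picked as the highest of many. EPN1 was at 13.99, 14.60 and 15.23 on the siControl arrays and at 12.75, 12.48 and 13.70 on the siGATA3 arrays. In siHIF1A cells it was at 14.07, 14.51 and 14.37. The siGATA3 arrays of EPN1 were all below its siControl arrays, a log2 fold change of -1.63, and within the siControl group the order of the arrays was that of GATA3. SMARCD1 had -1.26 and MNS1 -1.04 in siGATA3 cells. In siHIF1A cells these 3 genes had -0.49 to -0.29, beside -0.37 for GATA3. The genes closest to LMO4 were LRRC8D (0.983), ABHD3 (0.977), GCNT1 (0.974), BLTP3A (0.972) and MCUR1 (0.972). Those closest to TRPS1 followed it less tightly, LOC101927025 (0.911), RPL41 (0.905), MIOX (0.875), INHBB (0.873) and TMC6 (0.871). For TRPS1 only the probe that stands for it was used, and its second probe, which disagreed, was not.

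**Figure D3:**
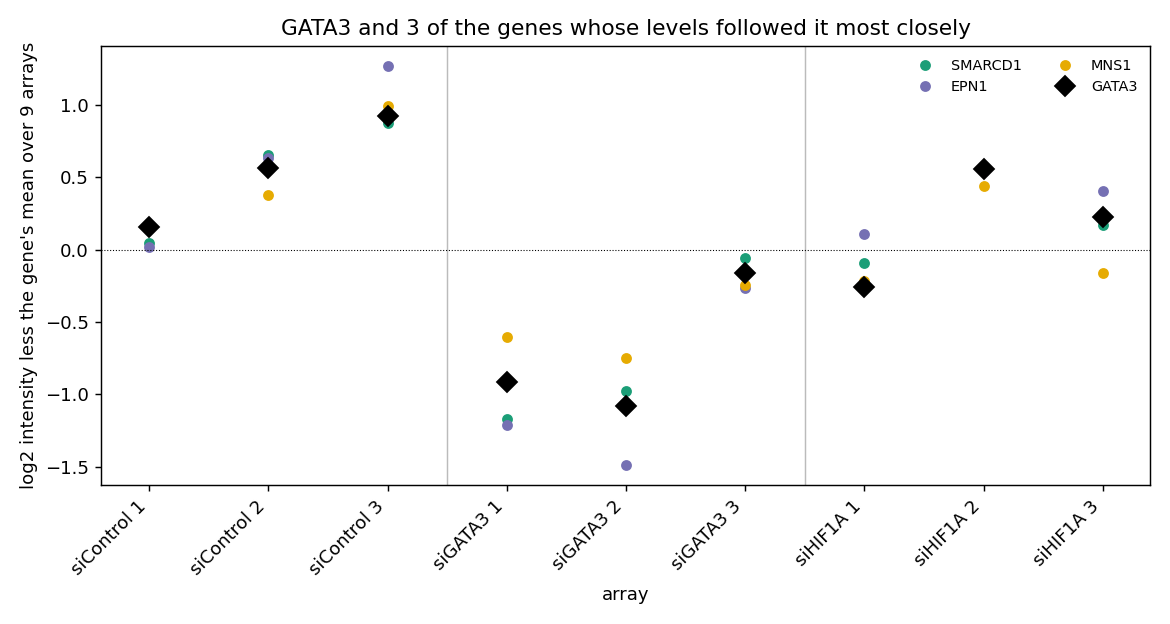
Log2 intensity less each gene's own mean over the 9 arrays (vertical axis) for GATA3 (diamonds) and 3 of the genes with the highest correlation with it (circles), array by array (horizontal axis). The 4 genes follow the same course over the arrays, lowest on the siGATA3 replicate 1 and 2 arrays and highest on the siControl replicate 3 array.

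Genes of pathways linked to GATA factors were counted by lists chosen with earlier results of these data known. Of 20 luminal epithelial genes linked to GATA3, 3 passed the unadjusted P of 0.05 in siGATA3 cells, all lower (2.97% of all genes passed, either direction), and the list's median difference was -0.21. They were GRHL2, a transcription factor of epithelial identity, TFAP2C, a partner of GATA3 in luminal cells, and the keratin KRT19. GRHL2 was at 12.67, 13.02 and 12.82 on the siControl arrays, 11.76, 12.01 and 11.89 on the siGATA3 arrays and 12.54, 13.23 and 12.87 on the siHIF1A arrays. Its siGATA3 arrays were below all other arrays, with a log2 fold change of -0.95 (SE 0.25, limma adjusted P = 1.00), and its other probe gave -1.30. TFAP2C had -0.87 (SE 0.27) and KRT19 -0.72 (SE 0.27). When arrays were omitted in turn, the calls of GRHL2 and TFAP2C held in 9 of 9 fits and that of KRT19 in 6 of 9. The KRT19 call was lost without siControl replicate 1 (-0.55), siGATA3 replicate 2 (-0.71) or siGATA3 replicate 3 (-0.62). ESR1 and FOXA1, the usual luminal partners of GATA3, had -0.18 and 0.06 and did not pass.

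In siHIF1A cells 1 of the 20 luminal genes passed, where 5.23% of all genes did, which is about the same share. It was the mucin MUC1 at -1.69, and the list's median was 0.06. In the direct comparison 7 of 20 passed, where 12% of all genes did. GRHL2 (-0.99), KRT18 (-0.71), TFAP2C (-0.66), KRT19 (-0.65) and KRT8 (-0.56) were lower in siGATA3 than in siHIF1A cells, and MUC1 (1.35) and SLC39A6 (1.34) were higher. In fits without 1 array, the call of GRHL2 held in 9 of 9, those of KRT18 and MUC1 in 6 and that of SLC39A6 in 4. The keratins are also markers of simple epithelium. Of the 7 markers of that kind, 3 passed as lower in siGATA3 against siControl cells (CLDN4 at -1.44, CLDN7 at -1.22 and KRT19), where 1.38% of all genes did, and 5 as lower in the direct comparison, where 5.05% did. The log2 of their summed intensity was 19.4 to 19.7 on the siControl arrays, 18.9 to 19.3 on the siGATA3 arrays and 19.5 to 19.9 on the siHIF1A arrays. This sum rests mostly on KRT8, KRT18 and KRT19, with mean levels of 17.6 to 17.9, beside 13.1 to 14.9 for the other markers. Against siControl, KRT8 (-0.25) and KRT18 (-0.35) did not pass in siGATA3 cells. Of the 13 squamous and basal markers, 0 passed in that comparison, where 2.97% of all genes did. Of the 10 mesenchymal markers, 1 passed as higher and 1 as lower. Whether fewer cells of a type or less RNA per cell lay behind the lower simple epithelial signal cannot be told apart. The part of this signal in the luminal counts was not tested.

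**Figure D4:**
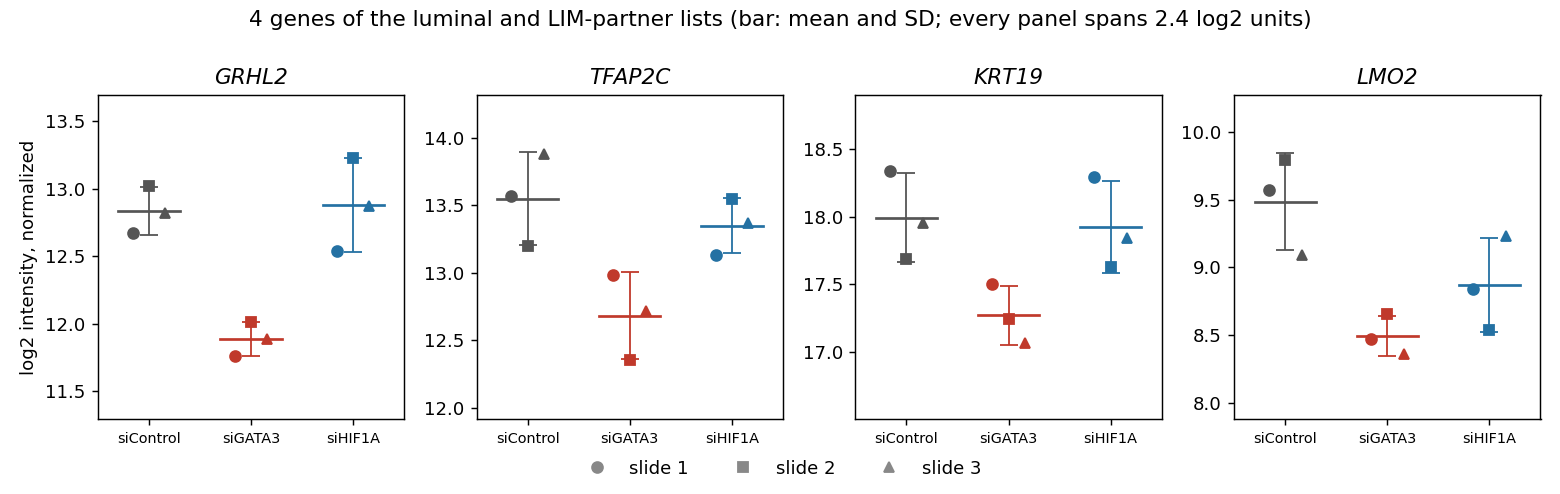
Normalized log2 intensity (vertical axis) of GRHL2, TFAP2C, KRT19 and LMO2 on the 9 arrays, grouped by siRNA (horizontal axis), with 1 symbol shape per slide, bars for the mean and error bars for the SD over 3 arrays. For each of the 4 genes the siGATA3 arrays lie below all siControl arrays, and for LMO2 the siHIF1A arrays, at 8.54 to 9.23, overlap both.

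Of 20 LIM-domain and bHLH partners on the array (of 21 listed), 1 passed in siGATA3 cells and 2 in siHIF1A cells, where 2.97% and 5.23% of all genes did, so these counts were near the shares over all genes. LMO2, the LIM-only adaptor that joins GATA1 to TAL1 in blood cells, was at 9.57, 9.79 and 9.09 on the siControl arrays and 8.47, 8.65 and 8.36 on the siGATA3 arrays. The groups did not overlap, the log2 fold change was -0.99 (SE 0.27, limma adjusted P = 1.00), and leaving out any 1 of the 9 arrays did not end the call. The LMO2 probe was well above background on 7 of 9 arrays. In siHIF1A cells LMO2 (-0.61) and LMO1 (-0.55) passed, and these calls held in 2 and 5 of 9 fits without 1 array. In the direct comparison 0 of 20 partners passed, where 12% of all genes did. The median of the partners was 0.07 in siGATA3 cells and -0.08 in siHIF1A cells.

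Of the 15 NuRD and CtBP genes that FOG proteins recruit, 0 passed in limma in either knockdown against siControl, where 2.97% and 5.23% of all genes did. In the direct comparison 1 passed, the remodeller CHD4, which was higher in siGATA3 cells (0.81, a call that held in 5 of 9 fits without 1 array). This was a smaller share than the 12% of all genes that passed there. None of the 8 other genes with a GATA-type zinc finger passed in limma in any comparison at the unadjusted threshold or after adjustment. Unadjusted shares over all genes were 2.97% (siGATA3 cells), 5.23% (siHIF1A cells) and 12% (direct comparison), so 0 of 8 was near them. GATAD2A, GATAD2B, MTA1, MTA2 and MTA3 are on this list and were also counted among the NuRD and CtBP genes. Among 12 coactivators and regulators, 0 passed in siGATA3 cells, the arginine methyltransferase PRMT5 was lower in siHIF1A cells (-0.62) and the Mediator kinase CDK8 was higher in the direct comparison (0.92). These counts of 1 of 12 stand beside 5.23% and 12% of all genes, and the 0 of 12 beside 2.97%. Without 1 array, the call of PRMT5 held in 5 of 9 fits and that of CDK8 in 4 of 9. With the mean of its probes PRMT5 was at -0.57 and did not pass.

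Of 11 T helper 2 and lymphoid genes, the interleukin-7 receptor IL7R was higher in siGATA3 cells (1.54), TCF7 was higher in siHIF1A cells (0.67), and in the direct comparison IL1RL1 was higher (1.55) and BCL11B lower (-0.85) in siGATA3 cells. The siControl arrays of IL7R ranged from 10.85 to 13.72, and the call held in 5 of 9 fits without 1 array, with the value falling to 0.80 without siControl replicate 1. That of TCF7 held in 3, IL1RL1 in 5 and BCL11B in 6 of 9. With the mean of its probes TCF7 was at 0.63 and did not pass. Each comparison thus had 1 or 2 of the 11 genes, beside 2.97%, 5.23% and 12% of all genes. The BCL11B value on siControl replicate 1 was set to missing as non-uniform. Of 12 blood genes linked to GATA1 and GATA2, 0 passed by limma in either knockdown against siControl, where 2.97% and 5.23% of all genes did. The receptor KIT alone passed in the direct comparison, where 12% of all genes did, and it was lower (-1.09) on the probe that stands for it. The other KIT probes went the other way, at 0.70 and 0.50, and did not pass. With the mean of the 3 KIT probes the difference was -0.04 and did not pass. Among 12 heart and gut genes, the natriuretic peptide NPPB was lower in siHIF1A cells, at -0.61 on the probe that stands for it and at -2.0 with the mean of its probes. The other NPPB probe gave -3.39 there (limma adjusted P over all probes = 0.00987). In siGATA3 cells the NPPB probes gave -0.35, which did not pass, and -1.25, which passed the unadjusted threshold. NPPA passed in siGATA3 cells, but no value is given for it, as its probe was well above background on 3 of 9 arrays. These heart and gut counts of 1 of 12 stand beside 2.97% (siGATA3 cells) and 5.23% (siHIF1A cells) of all genes. In the direct comparison 0 of 12 passed, where 12% of all genes did. With 1 probe standing for each gene, none of these list genes passed after adjustment over all genes.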

How the data were processed

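RNA of OEC-M1 cells was hybridised to 9 Agilent 1-colour arrays. The authors deposited scanner output of Feature Extraction 10.5.1.1 (version from the submitters' processing notes) with 60901 spots per array, holding linear intensity (median spot and background signals, processed signal) and marks for non-uniform spots and for probes well above background. They also deposited a log2 value table. After subtracting 1 constant per array from the log2 processed signal, 99.3% of the table matched it to 0.001, and its column medians were -2.40 to -2.07.

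In R 4.3.3 with limma 3.58.1, normexp (offset 50) was applied to the median signals, because the files hold no mean signal. Non-uniform spots were set to missing, control spots were left out, arrays were quantile normalized, replicate spots were averaged per probe, and each gene took its brightest probe. Accessions were named through RefSeq (31104 of 58201 probes, 22439 symbols). All 9 arrays were fitted together with lmFit and eBayes, two-sided, at an unadjusted P of 0.05 with Benjamini-Hochberg adjusted P values beside it. The fit was checked on simulated data.

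The members and lists were chosen with earlier results of these data known. Named genes are the members, HIF1A, up to 4 genes per list and comparison that passed and carried the mark for signal above background on all 3 arrays of a compared group (largest change first), and the 5 genes most correlated with GATA3, TRPS1 and LMO4, some of which are not reported here. Other genes named (ESR1, FOXA1, NPPA, CLDN4, CLDN7, and TFAP2C, KRT19 and KRT8 in the direct comparison) were chosen after their values were seen. For the pairing check, deviations from group means of arrays with the same number correlated at 0.22, 0.59 and 0.72 between siControl and siGATA3, at 0.61, 0.12 and 0.07 between siControl and siHIF1A, and at 0.34, -0.19 and 0.10 between siGATA3 and siHIF1A. The 18 pairs of arrays with different numbers correlated at -0.69 to 0.47, so the ranges overlap. Alternatives covered background correction, scaling, the authors' table, dim and non-uniform probes, probe choice, the replicate block, 6-array fits, eBayes settings, adjusted P and each array left out. Leaving out arrays and averaging probes for list genes were added after the data were seen.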

Additional observations from a re-analysis of the deposited data

How the results depend on the processing

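The fall of GATA3 in siGATA3 cells kept its direction and passed the unadjusted threshold under every alternative scaling, background, probe, sample and eBayes setting run, at -1.496 to -1.20, and with each array left out. It did not pass an adjusted P of 0.05 (still -1.27), and under that threshold 0 members passed in each comparison. With each array left out in turn, between 1 and 2 members passed in siGATA3 cells, between 0 and 1 in siHIF1A cells and between 0 and 2 in the direct comparison. Over all genes, 2% to 12.7%, 2.98% to 10.1% and 5.7% to 20.5% passed in these fits. Differences that did not pass also moved with 1 array left out, over -0.57 to -0.16 for GATA3 and -0.81 to -0.19 for GATA6 in siHIF1A cells, and over -0.61 to -0.26 for TRPS1 in siGATA3 cells. With dim probes left out, GATA5 was not tested and 1 of 9 members passed in the direct comparison, where 12.8% of all genes did. With the replicate block, which pairs arrays by slide, 1, 0 and 2 members passed, with GATA3 at -1.27 (limma adjusted P = 0.684), and no call of a member changed, while 4.99%, 8.41% and 18.7% of all genes passed in place of 2.97%, 5.23% and 12%.

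Members near 0 changed sign, and none of these 58 values passed; the cause was not tested. In siGATA3 against siControl cells, GATA4 was -0.15 with the mean of its probes, GATA6 was 0.022 and LMO4 0.001 with 75th percentile scaling, GATA6 was 0.0031 and ZFPM2 0.029 with the scaled processed signal, and ZFPM2 was 0.012 in the authors' table. With 1 array left out, values spanned -0.31 to 0.38 for GATA1, -0.082 to 0.14 for GATA4, -0.29 to 0.34 for GATA6, -0.63 to 0.53 for ZFPM2 and -0.39 to 0.33 for LMO4. In siHIF1A against siControl cells, 75th percentile scaling gave 0.046 for GATA1, -0.0865 for GATA4 and 0.045 for TRPS1, the scaled processed signal gave 0.19, -0.0063 and 0.17, and the authors' table gave 0.19, -7e-04 and 0.18. With non-uniform spots kept, GATA1 was 0.0016, GATA2 0.0041 and TRPS1 0.016, and TRPS1 was 0.064 with the mean of its probes. With 1 array left out, values spanned -0.30 to 0.13 for GATA1, -0.077 to 0.018 for GATA2, -0.24 to 0.82 for ZFPM2, -0.13 to 0.20 for TRPS1 and -0.21 to 0.54 for LMO4. In the direct comparison, GATA1 was -0.067 with the scaled processed signal and -0.090 in the authors' table. There 75th percentile scaling, the scaled processed signal and the authors' table gave 0.24, 0.19 and 0.17 for GATA4 and 0.090, 0.12 and 0.10 for ZFPM1. With 1 array left out, values spanned -0.30 to 0.39 for GATA1, -0.068 to 0.087 for ZFPM1, -0.80 to 0.014 for ZFPM2 and -0.56 to 0.11 for LMO4.

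With 3 arrays per group, 95% intervals of the members were at least 0.95 log2 units wide. GATA5 was limited by signal, with spots at 2.01 to 4.52 times background. A P that misses the threshold does not show that levels were equal. The siControl replicate 3 array was the dimmest, and without it GATA3 in siGATA3 cells was -1.08. On these arrays each siRNA target rests on 1 siRNA, and protein levels were not measured on them.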
